A study of Mus musculus with 6 samples.

Results

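The respiratory chain genes were taken as all genes of the table whose name begins with Ndufa, Ndufb, Ndufc, Ndufs, Ndufv, Sdh, Uqcr, Cox4 to Cox8, Atp5, mt-Nd, mt-Co, mt-Cyt or mt-Atp, without names marked as pseudogenes and without the Ndufaf assembly factors. This gave 102 of 49585 genes, 89 in the nucleus and 13 on the mitochondrial genome. The rule used names only and no measured value. It placed 45 genes in complex I, 4 in complex II with 4 further genes for its assembly, 9 in complex III, 21 in complex IV and 19 in complex V. A few names do not match present knowledge of the protein: the Ndufa4 protein is now known as a subunit of complex IV, and Atp5s and Atp5sl are not subunits of the ATP synthase itself.

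Poly(A) RNA had been sequenced from splenic regulatory T cells (Tregs) of C57BL/6 mice aged 7 weeks, in 3 wild-type (WT) libraries and 3 libraries labelled Bach2-cKO, a conditional knockout of the transcriptional repressor BACH2. Both groups were sorted as B220-CD4+YFP+ cells, which the design text also gives as CD25+, and were stimulated for 24 hours on plate-bound antibodies against CD3 and CD28. The labels do not state which Cre or cell type carries the deletion or what drives YFP. Nothing says that each library is its own mouse, so p-values here refer to the spread among libraries, part or all of which may be technical.

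The respiratory chain passes electrons from NADH through complex I and from succinate through complex II to ubiquinone, then through complex III, cytochrome c and complex IV to oxygen. Complexes I, III and IV pump protons across the inner mitochondrial membrane, and complex V, the ATP synthase, uses the gradient to make ATP. The catalytic cores of complexes I, III and IV and the proton channel of complex V hold subunits encoded by mitochondrial DNA, and all other subunits come from nuclear genes. Tregs are known to rely on oxidative phosphorylation more than conventional effector T cells do.

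The libraries held between 27697735 and 43884431 reads, as recovered from the steps of the FPKM values (fragments per kilobase, relative to the total of a library). Reads recovered for genes made up 99.9% of this total in each library, so the total leaves out reads not counted in a gene. The deepest was WT replicate 1. Foxp3, the defining transcription factor of Tregs, stood at 116 ± 10.1 FPKM in WT and 123 ± 26.5 in Bach2-cKO (SD, n = 3 each, as for all ± values here), and did not pass the test. Of 7 Treg markers, 1 passed as higher, Il2ra (the CD25 chain of the interleukin-2 receptor, log2 difference 0.92), and 2 as lower, Ikzf4 (-0.45) and Nrp1 (-0.86). Of 6 general T cell markers, Cd3d (-0.37) and Cd3g (-0.28) passed as lower, and their summed level ran from 1641 to 1795 FPKM in WT and from 1331 to 1555 in Bach2-cKO. Bach2 itself stood at 108 ± 7.11 and 105 ± 16.0 FPKM (limma adjusted p = 0.812), and the labels do not say which exons the deletion removes, so the level of the gene does not check them. Markers of B cells were present in all 6 libraries, none of the 12 at 0, with Pax5 at 181 ± 17.3 FPKM in WT and 285 ± 32.1 in Bach2-cKO. The sum over the 12 genes ranged from 1204 to 1677 FPKM in WT and from 1733 to 2217 in Bach2-cKO, and 5 of them passed the test as higher. Summed markers of plasma cells ran from 92.7 to 143 FPKM in WT and from 178 to 285 in Bach2-cKO, and the 2 markers of CD8 T cells from 40.2 to 44.2 and from 53.8 to 99.3. Of 3 tested markers of dendritic cells, Flt3 (-0.73) passed as lower. The others did not pass: Zbtb46 stood at -0.02, and Xcr1 at 0.60 with all Bach2-cKO libraries above WT. Of 3 platelet markers only Itga2b was tested, and it passed as lower (-0.93). None of the 7 markers of proliferating cells passed. Their sum ran from 401 to 549 FPKM in WT and from 436 to 676 in Bach2-cKO. Mki67 gave 36.4, 34.02 and 51.1 FPKM in WT and 71.3, 65.96 and 44.6 in Bach2-cKO. The tested markers of natural killer (NK), myeloid and erythroid cells did not pass either. Summed NK markers stood at 7.81 ± 1.43 FPKM in WT and 14.3 ± 3.10 in Bach2-cKO, with no overlap. In bulk RNA, a change in the number of cells of a type and a change in RNA per cell cannot be told apart, and the part of these shifts in the results given here was not tested, apart from the fit with a B cell score described with the complex IV genes.

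Few respiratory chain transcripts differed between WT and Bach2-cKO Tregs beyond the spread between libraries. Of the 102 genes, 97 passed the filter of at least 1 FPKM in at least 3 libraries. Of these, 5 passed the test (limma, adjusted p under 0.05), 1 higher and 4 lower in Bach2-cKO, which is 5.15% of the tested members beside 15.3% of all 13766 genes tested. For all genes, 7.02% passed as higher and 8.31% as lower. Among the 6099 tested genes with a mean of at least 20 FPKM, a level nearer to that of these genes, 18.4% passed. All 5 members that passed were nuclear: Cox6a2 was higher, and Cox6b2, Cox7a2l, Uqcrh and Ndufa6 were lower.

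The size of the differences was small as well. The median log2 difference, Bach2-cKO minus WT on the log2(FPKM + 1) scale used throughout, was 0.0046 over the 97 members and -0.02 over all genes tested. It lay within 0.25 of zero in 87 members (89.7%), against 65.5% of all tested genes and 74.2% of those with a mean of at least 20 FPKM. The 95% confidence interval lay wholly within 0.5 of zero in 86 members (88.7%), against 57.4% and 77.8%. Groups did not overlap in 15 members, beside 35.6% of all tested genes. All Bach2-cKO libraries lay above WT in 5 members, beside 15.5% of all tested genes, and below in 10, beside 20.1%.

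**Figure D1:**
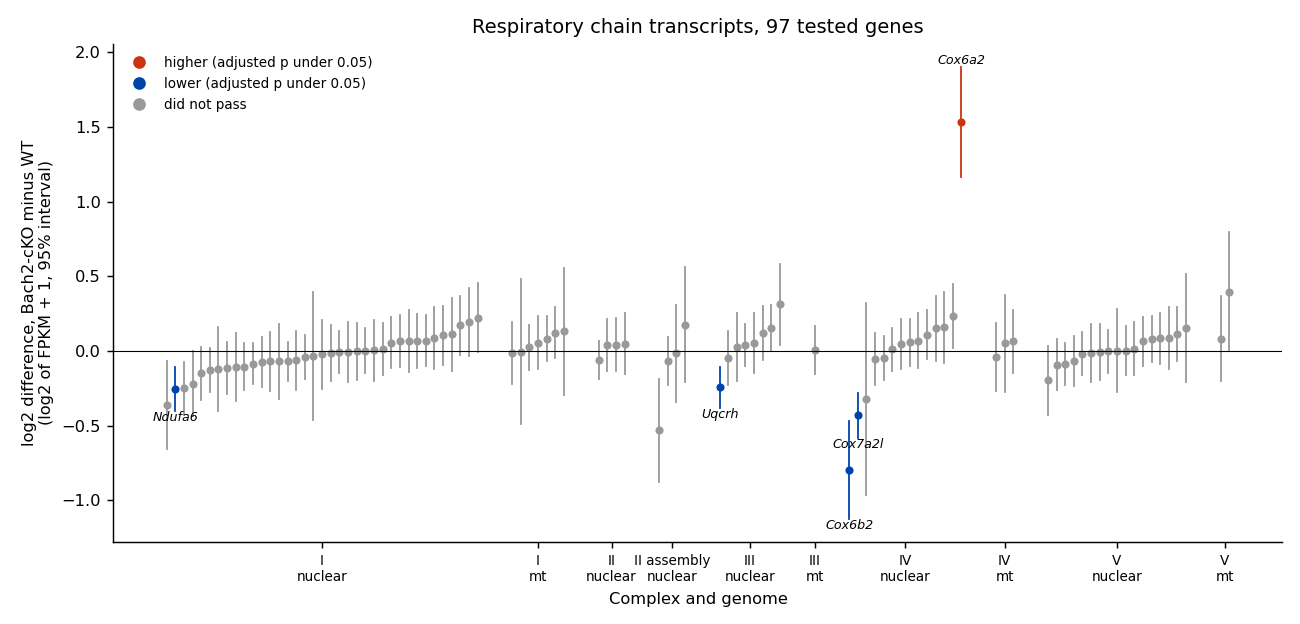
Log2 difference (Bach2-cKO minus WT, on log2 of FPKM + 1) of the 97 tested respiratory chain genes, by complex and by genome (mt, mitochondrial); points are estimates from 3 libraries a group and lines are 95% confidence intervals. Cox6a2 stands apart at 1.53, 4 genes in blue passed as lower, and 87 of the 97 points lie within 0.25 of zero.

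Summed over genes, the nuclear members took 0.693% ± 0.0346 of the reads counted in genes in WT and 0.695% ± 0.0284 in Bach2-cKO. The 13 mitochondrial genes took 1.21% ± 0.0503 in WT and 1.26% ± 0.0131 in Bach2-cKO. Both differences were smaller than the SD of the WT libraries. The nuclear genes of complex I took 0.185% ± 0.00944 in WT and 0.182% ± 0.00467 in Bach2-cKO, and those of complex V 0.265% ± 0.0152 and 0.269% ± 0.0132. The differences of the subunit genes of complexes II, III and IV in the nucleus were smaller than the SD of WT as well. Those of the mitochondrial genes of complex IV, at 0.639% ± 0.0272 in WT and 0.669% ± 0.00653 in Bach2-cKO, and of the assembly genes of complex II, at 0.00802% ± 0.000359 and 0.00754% ± 0.000137, were larger than that SD. None of these sums was tested.

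Complex I, the NADH dehydrogenase, has 38 nuclear members here, 7 of which encode the conserved core and 31 accessory subunits. Of the 37 tested, 0 passed as higher and 1 as lower (2.70%), and their median log2 difference was -0.02. None of the 7 core genes passed (limma, 0 at an unadjusted p under 0.05, and 0 by limma-voom). Ndufs1, which carries iron-sulfur clusters of the electron path, gave 60.6, 58.6 and 59.0 FPKM in WT and 57.1, 62.8 and 57.8 in Bach2-cKO. The groups overlapped, and the log2 difference was -0.01 (95% interval -0.15 to 0.13). Ndufv1, which binds NADH and the flavin, gave 75.6, 82.3 and 93.4 FPKM in WT and 82.7, 85.6 and 82.0 in Bach2-cKO, so that all Bach2-cKO values lay inside the WT range.

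The accessory subunit Ndufa6 (chr15:82350139-82354291, minus strand, GRCm38), a member of the LYR protein family, was the one gene of complex I that passed. It gave 127, 131 and 119 FPKM in WT and 101, 110.1 and 105 in Bach2-cKO, with every Bach2-cKO library below every WT library. The level was 0.839 of that in WT (log2 difference -0.25 ± 0.06 SE, adjusted p = 0.0357). The call was kept without WT replicate 3 (adjusted p = 0.0398) and lost without any other single library, with adjusted p from 0.0544 without Bach2-cKO replicate 3 to 0.121 without Bach2-cKO replicate 1. Fam109b, 4396 bases away on the opposite strand, passed as lower too (log2 difference -0.53, adjusted p = 0.0495). Smdt1, which is nearer at 1048 bases and also on the opposite strand, did not (0.07, adjusted p = 0.696).

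At the other end of complex I, Ndufs5, an accessory subunit of the intermembrane space side, had the highest log2 difference, 0.22. Its values were 51.7, 63.5 and 49.8 FPKM in WT and 68.4, 62.7 and 61.1 in Bach2-cKO. The groups overlapped through WT replicate 2 alone, and the adjusted p was 0.177, or 0.0417 without that library. The 10 Ndufb genes, which sit in the membrane arm, had a median log2 difference of -0.07. In 3 of them all Bach2-cKO libraries lay below WT, beside 20.1% of all tested genes. Ndufb4 gave 35.4, 37.4 and 31.6 FPKM in WT and 28.9, 28.8 and 29.4 in Bach2-cKO, a log2 difference of -0.25 that did not pass (adjusted p = 0.0635), although it did without WT replicate 3. Ndufa4l2, a paralogue of Ndufa4 that is known to be induced under low oxygen, was near zero, with 0 to 10 reads a library.

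Complex II, succinate dehydrogenase, also serves the tricarboxylic acid cycle and is wholly encoded in the nucleus. None of its 4 subunits passed (limma, 0 of 4, with 0 at an unadjusted p under 0.05 and 0 by limma-voom). Sdha, the flavoprotein that oxidises succinate, gave 366, 364 and 359 FPKM in WT and 348, 359.8 and 337 in Bach2-cKO. Sdhb, the iron-sulfur subunit, gave 93.3, 106 and 107 in WT and 112, 103 and 99.5 in Bach2-cKO. Sdhc, one of the membrane anchors, gave 35.5, 41.7 and 41.3 in WT and 43.9, 41.0 and 37.7 in Bach2-cKO. The groups overlapped for all 3 genes, and the confidence intervals of all 4 subunits lay within 0.5 of zero.

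Among the 4 assembly genes of complex II, Sdhaf1, which helps to insert iron-sulfur clusters into Sdhb, was nearest to the threshold. It was weakly detected, at 2.28, 2.70 and 2.17 FPKM in WT and 1.57, 1.11 and 1.37 in Bach2-cKO, or between 88 and 249 reads a library, and the groups did not overlap. Its log2 difference was -0.53 (adjusted p = 0.0508), and limma-voom on the recovered reads did call it lower. The annotation places another coding gene, E130208F15Rik, on the opposite strand across it, so that 69.0% of its 50-base stretches lie in that gene as well, and that gene was listed at 0 in all 6 libraries. The next gene, Syne4, also on the opposite strand and 2360 bases away, passed as lower (log2 difference -0.89, adjusted p = 0.0098). Alkbh6, on the opposite strand at 7102 bases, passed as lower too (log2 difference -0.53, adjusted p = 0.0115). The other assembly genes did not pass: Sdhaf2, which attaches the flavin to Sdha, gave 20.05, 21.4 and 21.5 FPKM in WT and 19.4, 20.2 and 20.4 in Bach2-cKO.

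Complex III, the cytochrome bc1 complex, has 8 nuclear members, of which 1 passed as lower and 0 as higher (12.5%, beside 15.3% of all tested genes). Uqcrh (chr4:116066965-116075071, minus strand), the acidic hinge protein that takes part in the contact of cytochrome c with cytochrome c1, gave 196, 208 and 209.5 FPKM in WT and 169, 168 and 181 in Bach2-cKO. All Bach2-cKO libraries lay below all WT libraries, at 0.844 of the WT level (log2 difference -0.24 ± 0.06 SE, adjusted p = 0.0329). This call rested on all of the libraries but one: it was kept without Bach2-cKO replicate 3 (adjusted p = 0.0232) and lost without any other, with adjusted p from 0.0595 without WT replicate 1 to 0.123 without Bach2-cKO replicate 2. A processed pseudogene, Gm12854, overlaps the gene on the opposite strand and held 19.0 to 31.2 FPKM. The sources used here do not say whether counting used strand.

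Uqcrq, a small subunit of the same complex, lay at the other end. It gave 100.1, 116 and 116 FPKM in WT and 151, 149 and 115 in Bach2-cKO, so that Bach2-cKO replicate 3 fell among the WT libraries while replicates 1 and 2 were above them. The log2 difference of 0.31 did not pass (adjusted p = 0.115), and without Bach2-cKO replicate 3 it was 0.44 (adjusted p = 0.0136). The core subunits did not pass. Uqcrc1 gave 159, 162 and 157 FPKM in WT and 173, 166 and 154 in Bach2-cKO, and Uqcrfs1, the Rieske iron-sulfur protein, gave 61.8, 68.8 and 69.5 in WT and 74.9, 76.6 and 66.3 in Bach2-cKO. In both genes the groups overlapped.

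Complex IV, cytochrome c oxidase, held 3 of the 5 calls, among 14 tested of 18 nuclear members. That is 21.4% of those tested, near the 15.3% of all tested genes and the 18.4% of those with a mean of at least 20 FPKM. Several small subunits of complex IV exist as isoforms, a general one and one known from particular tissues. The largest differences were in such tissue isoforms. Cox6a2 (chr7:128205435-128206387, minus strand), the isoform known from heart and skeletal muscle, gave 1.74, 2.71 and 2.76 FPKM in WT and 8.49, 9.98 and 7.94 in Bach2-cKO, from 52 to 57 reads a library in WT and 150 to 217 in Bach2-cKO. Every Bach2-cKO library lay well above every WT library, with a mean 3.66 times that of WT (log2 difference 1.53 ± 0.16 SE, adjusted p = 0.00126). The gene lies within Itgad, which runs on the opposite strand and had at most 0.292 FPKM.

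Cox6b2 (chr7:4751792-4753094, minus strand), the isoform known from testis, fell. It gave 7.74, 8.95 and 7.08 FPKM in WT and 3.43, 4.16 and 4.86 in Bach2-cKO, from 93 to 161 and from 45 to 64 reads a library. The groups were separate, and the mean was 0.524 of that in WT (log2 difference -0.80 ± 0.14 SE, adjusted p = 0.0098). Cox6a2 and Cox6b2 were both called without each single library in turn. Cox7a1, another isoform of heart and muscle, gave 2.08, 1.62 and 2.06 FPKM in WT and 0.493, 1.71 and 2.13 in Bach2-cKO and did not pass (adjusted p = 0.48).

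Cox7a2l (chr17:83501919-83514333, minus strand) was the one abundant gene of complex IV that passed. Its protein, also known as SCAF1, binds complexes III and IV together into supercomplexes, and C57BL/6 mice carry a shortened form of it that binds complex IV poorly. The gene gave 184, 202 and 176 FPKM in WT and 137, 140.0 and 139 in Bach2-cKO. The Bach2-cKO libraries lay close together and all below WT, at 0.74 of the WT mean (log2 difference -0.43 ± 0.07 SE, adjusted p = 0.00537), and the call was kept without each single library.

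**Figure D2:**
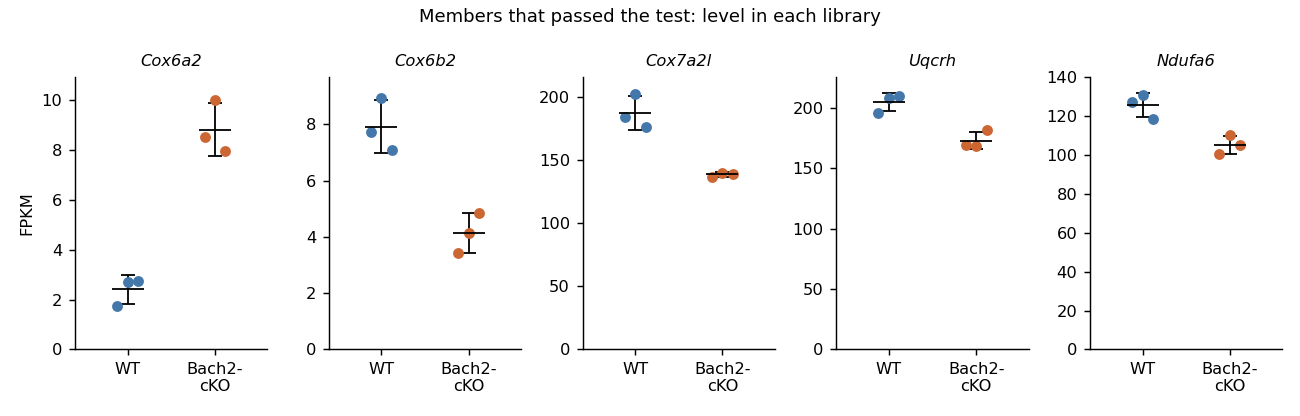
FPKM in each library (points) of the 5 respiratory chain genes that passed the test, with the mean and SD of 3 libraries (bars); each axis starts at 0. Cox6a2 lies between 1.74 and 2.76 in WT and between 7.94 and 9.98 in Bach2-cKO, and the other 4 genes have all Bach2-cKO libraries below all WT libraries.

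The general isoforms of these pairs did not pass (adjusted p = 0.336 for Cox6a1, 0.613 for Cox6b1 and 0.712 for Cox7a2). Cox6a1 gave 234, 257 and 253 FPKM in WT and 319, 274 and 242 in Bach2-cKO, Cox6b1 gave 198, 215 and 209 in WT and 208, 233 and 207, and Cox7a2 gave 78.3, 87.3 and 92.8 in WT and 89.8, 90.4 and 86.1. The groups overlapped in all 3 genes. To set isoforms against each other, FPKM was rescaled to the longest coding transcript of each gene. On that scale Cox6a2 made up 0.915% ± 0.180 of the sum of Cox6a1 and Cox6a2 in WT and 2.97% ± 0.449 in Bach2-cKO. Cox6b2 made up 4.47% ± 0.440 and 2.30% ± 0.434 of its pair. In both pairs the libraries of the groups were separate, and the rarer isoform was at most 4.84% of its pair in any library. The pair of Cox7a2l and Cox7a2 differs, since Cox7a2l was the larger part, at 74.1% ± 2.34 in WT and 67.3% ± 0.647 in Bach2-cKO, again with no overlap. Shares within a pair were not tested apart from the genes themselves.

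**Figure D3:**
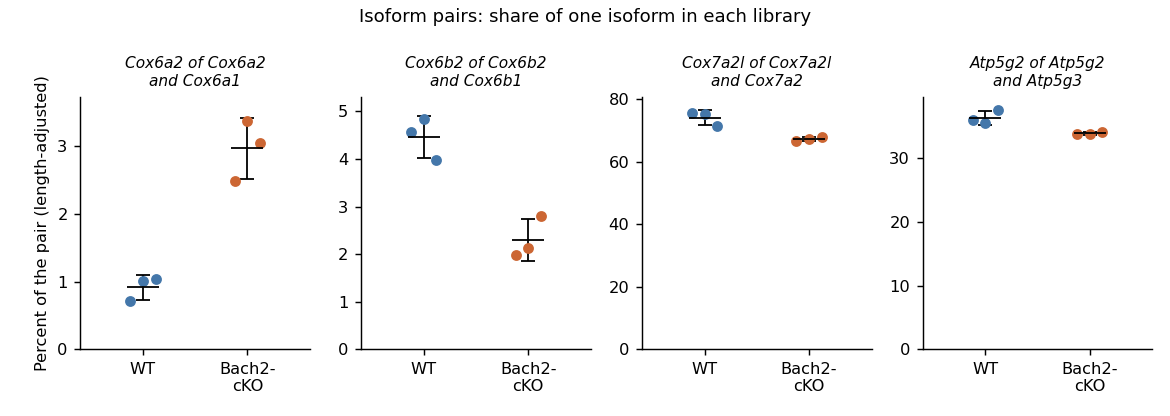
Share of one isoform in the summed, length-adjusted FPKM of a pair, in percent, in each library (points) with the mean and SD of 3 libraries; each axis starts at 0. Cox6a2 lies at 0.708% to 1.04% in WT and 2.49% to 3.37% in Bach2-cKO, and the other 3 panels have all Bach2-cKO points below all WT points.

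The remaining nuclear genes of complex IV include 4 isoforms that did not reach the filter. Cox4i2, known from lung and low oxygen, had 2 to 14 reads a library, Cox7b2 and Cox8c, both known from testis, had 0 to 4 and 0 to 1, and Cox8b, from heart and muscle, had 0 to 4. Cox4i1, the general isoform of the subunit to which ATP binds, gave 284, 326 and 311 FPKM in WT and 314, 296 and 279 in Bach2-cKO. Cox5a, which contacts it, gave 46.4, 47.4 and 53.4 in WT and 61.2, 61.3 and 51.4 in Bach2-cKO. For Cox5a the log2 difference of 0.24 did not pass (adjusted p = 0.126), and as for Uqcrq the value without Bach2-cKO replicate 3 did (0.32, adjusted p = 0.0351). The proliferation markers Mki67 and Cdk1 also had Bach2-cKO replicate 3 within the WT range and replicates 1 and 2 above it. A link between these patterns was not tested.

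The 5 calls were compared with the B cell markers that moved with the groups. When a score from the B cell markers was added to the model, 0 of the 97 members passed (limma, with 10 at an unadjusted p under 0.05), beside 30 genes higher and 35 lower of all 13766. With the score, the log2 difference of Cox6a2 was 1.18 (adjusted p = 0.128), that of Cox6b2 -1.04 (adjusted p = 0.148), that of Cox7a2l -0.57 (adjusted p = 0.0926), that of Uqcrh -0.26 (adjusted p = 0.362) and that of Ndufa6 -0.38 (adjusted p = 0.198). Of the 97 members, 29 changed sign when the score was added. The score itself ran from 5.93 to 6.31 in WT and from 6.41 to 6.74 in Bach2-cKO, so it did not overlap between the groups, and score and genotype cannot be told apart in these 6 libraries.

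Complex V had 17 nuclear members, all tested, and 0 passed (limma, with 0 at an unadjusted p under 0.05 and 0 by limma-voom). Its log2 differences ran from -0.20 to 0.16 with a median of 0.003. Atp5b, the catalytic beta subunit, gave 698, 740.1 and 794 FPKM in WT and 858, 804 and 713 in Bach2-cKO. Atp5a1, the alpha subunit, gave 367, 379 and 399 in WT and 395, 383 and 366 in Bach2-cKO, with a log2 difference of 0.00 (95% interval -0.15 to 0.14). The extremes were Atp5g1 at 0.16, with 13.3, 14.2 and 17.8 FPKM in WT and 17.1, 20.1 and 13.8 in Bach2-cKO, and Atp5sl at -0.20, with 59.4, 69.8 and 56.5 in WT and 48.9, 54.1 and 58.5 in Bach2-cKO. The groups overlapped in all 4.

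The c subunit of the ATP synthase rotor is encoded by 3 genes whose mature proteins are known to be identical. Rescaled to length, Atp5g3 was the highest, at 242 FPKM in WT and 253 in Bach2-cKO. Atp5g2 followed at 138 and 129.5, and Atp5g1 at 8.53 and 9.61. How far Atp5g1 lies below the others depends on the length used. Its longest coding transcript has 4715 bases, against 753 for Atp5g2 and 723 for Atp5g3. As deposited, Atp5g1 had 15.1 FPKM in WT and 17.0 in Bach2-cKO. It held 1019 to 1716 reads a library, and Atp5g3 held 4704 to 7277. The share of Atp5g2 in its sum with Atp5g3 was 36.3% ± 1.08 in WT and 33.8% ± 0.231 in Bach2-cKO, and the libraries did not overlap, though neither gene passed the test (adjusted p = 0.457 and 0.579). Sequence shared with other annotated genes, either copies or genes that overlap in place, limits some genes of complex V. Of the 50-base stretches of Atp5l, 84.8% also occur in other annotated genes, as do 47.9% of those of Atp5h and 50.3% of those of Atp5o. For Atp5o, 14.8% occur in the antisense gene D430001F17Rik, which overlaps it. Of the 89 nuclear members, 40 shared no such stretch with another gene. Among the 5 genes that passed, the share was 17.7% for Cox7a2l, 7.83% for Uqcrh, 3.33% for Cox6a2 and 0 for Cox6b2 and Ndufa6. That of Cox6a2 lies in Itgad, the gene around it.

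None of the 13 mitochondrially encoded transcripts passed (limma, 0 of 13, with 0 at an unadjusted p under 0.05 and 0 by limma-voom). Their median log2 difference was 0.06. In complex I, mt-Nd1 gave 1289.9, 1433 and 1430.4 FPKM in WT and 1448, 1474 and 1395 in Bach2-cKO, and mt-Nd4 gave 487, 539 and 525 in WT and 507, 535 and 534 in Bach2-cKO. mt-Nd5 gave 599, 569 and 656 in WT and 644, 654 and 685, and mt-Nd6, the one messenger read from the other strand, gave 397, 467 and 478 in WT and 414, 443 and 469. In these 4 genes the groups overlapped. Those of mt-Nd2 did not, at 611, 667 and 668 FPKM in WT and 673, 692 and 695 in Bach2-cKO, yet its log2 difference was 0.08 (95% interval -0.07 to 0.23, adjusted p = 0.437).

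The low members of complex I were mt-Nd3, at 9.23, 13.8 and 15.9 FPKM in WT and 12.6, 15.5 and 14.0 in Bach2-cKO, and mt-Nd4l, at 4.07, 5.56 and 8.02 in WT and 5.10, 6.53 and 5.45. Their groups overlapped.

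mt-Cytb, the cytochrome b of complex III, gave 1401, 1426 and 1484 FPKM in WT and 1412, 1454 and 1459 in Bach2-cKO. mt-Co1, the catalytic subunit of complex IV, was the most abundant member of either genome, at 3994, 4029 and 4309 FPKM in WT and 4287, 4348 and 4271 in Bach2-cKO. Its partners mt-Co2 and mt-Co3 gave 41.3, 40.5 and 48.6 and 12.7, 14.9 and 19.1 FPKM in WT, and 45.3, 43.4 and 37.8 and 16.1, 16.8 and 15.0 in Bach2-cKO. None of these 4 genes separated the groups. In complex V, mt-Atp6 gave 14.1, 13.8 and 18.03 FPKM in WT and 14.4, 17.6 and 16.6 in Bach2-cKO, with overlap. mt-Atp8, a short subunit of the same complex, had the highest log2 difference of the mitochondrial genes, 0.40, with 2.01, 2.70 and 1.77 FPKM in WT and 3.89, 2.76 and 2.82 in Bach2-cKO and no overlap. It rested on 10 to 22 reads a library and did not pass (adjusted p = 0.164).

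The mitochondrial messengers fell into a high and a low set, although the heavy strand is transcribed as a polycistronic precursor from which the messengers are cut. The 7 high genes ran from 447 FPKM for mt-Nd6 to 4110.3 for mt-Co1 in WT. The 6 low ones were mt-Co2 at 43.5, mt-Co3 at 15.6, mt-Atp6 at 15.3, mt-Nd3 at 13.0, mt-Nd4l at 5.88 and mt-Atp8 at 2.16. Between mt-Co2 at the top of the low set and mt-Nd6 at the bottom of the high set no gene lay, and the libraries of neighbouring genes on either side of that gap did not overlap. mt-Co3, mt-Atp6 and mt-Nd3 were not separate from each other over the libraries.

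The low genes match a nuclear copy of the mitochondrial genome on chromosome 1 of GRCm38, which the annotation splits into unprocessed pseudogenes. Along their whole aligned length, mt-Co2 (681 bases), mt-Atp6 (678 bases), mt-Co3 (783 bases) and mt-Nd4l (294 bases) are identical to Gm28661, Gm10925, Gm28437 and Gm10222, and mt-Nd3 differs from Gm28438 at 1 of 345 bases. The copy of mt-Nd4, Gm28439, covers 63.6% of the gene, and that of mt-Co1, Gm29216, covers 31.8% with 6 mismatches. Stretches of 60 bases from 3 of these pairs show the range from no difference to the edge of the copy, with capitals at the bases that differ (transcript sequences of GENCODE M21, 5′ to 3′ on the strand of the messenger; the nuclear copies lie on the minus strand of chromosome 1).
mt-Co2, chrM:7013-7072: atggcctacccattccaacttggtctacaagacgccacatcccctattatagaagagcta
Gm28661, chr1:24615506-24615565: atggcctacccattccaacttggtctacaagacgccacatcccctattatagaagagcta
mt-Nd3, chrM:9459-9518: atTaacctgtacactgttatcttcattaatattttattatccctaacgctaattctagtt
Gm28438, chr1:24613060-24613119: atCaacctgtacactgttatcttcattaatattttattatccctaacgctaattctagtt
mt-Co1, chrM:6381-6440: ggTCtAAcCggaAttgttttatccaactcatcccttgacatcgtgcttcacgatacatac
Gm29216, chr1:24616138-24616197: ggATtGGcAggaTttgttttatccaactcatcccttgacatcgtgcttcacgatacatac

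The copies were listed at levels of the same order as those of the low genes, some lower and some higher than the gene itself. Gm28661 had 25.1 FPKM as the mean of WT and 22.4 of Bach2-cKO, Gm10925 had 24.3 and 26.0, Gm28437 had 13.0 and 14.3, Gm28438 had 3.43 and 3.10 and Gm10222 had 4.61 and 4.55. All libraries of Gm28661 lay below those of mt-Co2, and all of Gm28438 below those of mt-Nd3, while all of Gm10925 lay above those of mt-Atp6. In 5 of the 6 low genes, from 98.0% to 100% of all 50-base stretches recur in another annotated gene, with mean levels over the 6 libraries from 5.79 to 42.8 FPKM. In the other 8 genes the share was at most 62.2%, with a median level of 651 FPKM. mt-Atp8 is the exception in the second set, with no stretch in another annotated gene and the lowest level of all. Only annotated transcripts were searched for such stretches. The chromosome 1 sequence between Gm28661 and Gm10925, the copies of its neighbours mt-Co2 and mt-Atp6, was not. Whether mt-Atp8 has a copy there was therefore not tested. This gene shares 43 bases with mt-Atp6. The sources used here do not say how reads that match both places were counted, so the levels of these genes are uncertain, and the part of the copies in them was not tested. The difference between WT and Bach2-cKO is a comparison within each gene. For the 5 genes with 98.0% to 100% of stretches in another gene, it rests on these uncertain levels too.

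**Figure D4:**
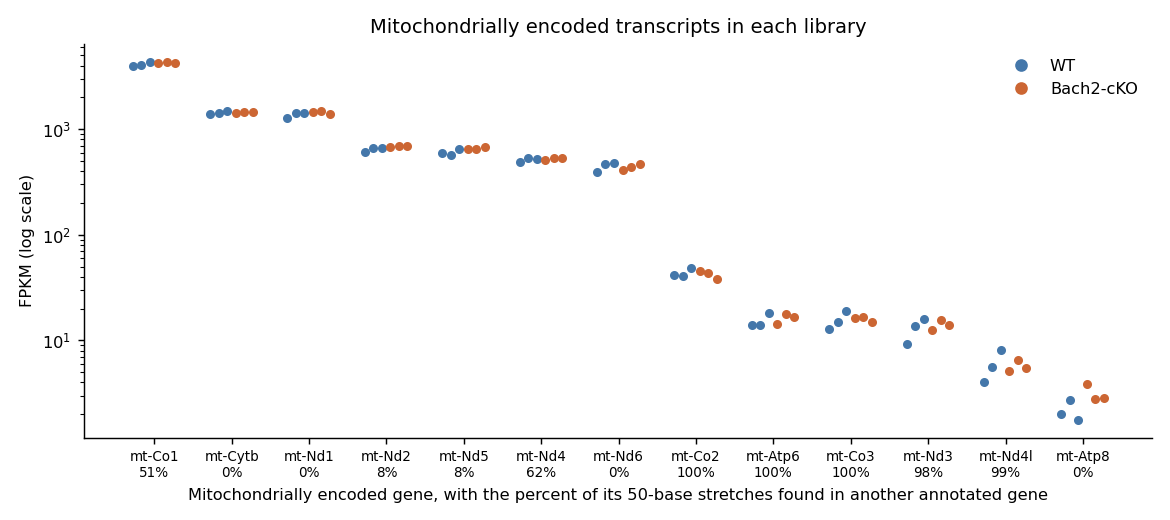
FPKM of the 13 mitochondrially encoded genes in each of the 6 libraries (points, log axis), ordered by mean level, with the percent of each gene's 50-base stretches that also occur in another annotated gene. The WT and Bach2-cKO points overlap in 11 of the 13 genes, with all Bach2-cKO points above WT in mt-Nd2 and mt-Atp8. The 5 genes with a share of 98.0% to 100% have means of 42.8 or less. So does mt-Atp8 with a share of 0, though sequence outside annotated genes was not searched.

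Of 24 mitochondrial genes for ribosomal and transfer RNAs, 3 passed the filter. In all 3, every Bach2-cKO library lay below every WT library, as it did in 20.1% of all tested genes. mt-Tp, the proline transfer RNA, gave 247, 226 and 245 FPKM in WT and 177, 198 and 178 in Bach2-cKO (log2 difference -0.37, adjusted p = 0.0117). The small ribosomal RNA, mt-Rnr1, gave 261, 291 and 276 in WT and 248, 226 and 234 in Bach2-cKO (log2 difference -0.23, adjusted p = 0.0589, and called lower by limma-voom). mt-Rnr2, the large one, had a log2 difference of -0.12 (adjusted p = 0.184). Of the 3, only mt-Tp passed in limma on FPKM. The libraries were made from poly(A) RNA, and the share of such RNAs that it recovers is not known here.

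One WT library was often the lowest. WT replicate 1 held the lowest value of 53 of the 97 tested members (54.6%), 44 of 84 nuclear and 9 of 13 mitochondrial, while it held the lowest value of 15.7% of all tested genes and of 18.5% of those with a mean of at least 20 FPKM. Its members lay a median of 0.11 below their mean over the 6 libraries on the log2 scale. Next to it, the nuclear members of Bach2-cKO replicate 3 lay 0.05 below and those of WT replicate 3 lay 0.05 above. Without WT replicate 1 the median log2 difference of the nuclear members was -0.04 in place of 0.00, and that of the mitochondrial members -0.01 in place of 0.06, so that both medians changed sign without this library. The ribosomal proteins of the mitochondrion showed the same library as lowest in 30 of 77 genes (39.0%). The part of depth or of the makeup of that library was not tested.

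**Figure D5:**
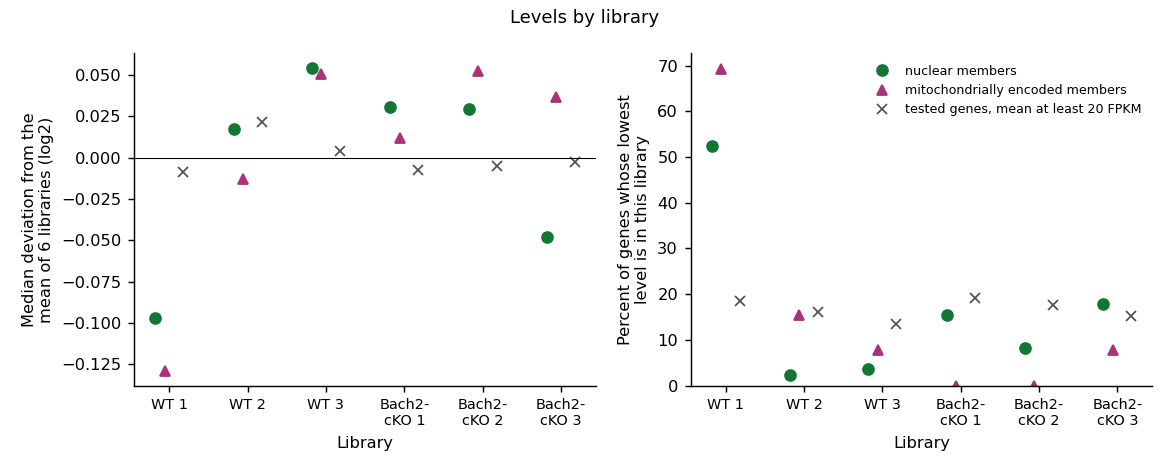
Left, the median deviation of a gene group from its mean over the 6 libraries (log2 of FPKM + 1); right, the percent of the group's genes whose lowest value lies in that library, for nuclear members, mitochondrially encoded members and tested genes with a mean of at least 20 FPKM. WT replicate 1 is lowest on the left for both groups of members and holds the lowest value of 52.4% of the nuclear and 69.2% of the mitochondrial ones.

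Genes that serve the chain without being its subunits were counted in lists. Of 45 tested assembly factors, 2 passed as higher and 0 as lower (4.44%, beside 15.3% of all tested genes). They were Sco1, which delivers copper to complex IV, with 5.83, 5.85 and 8.36 FPKM in WT and 14.0, 13.8 and 9.95 in Bach2-cKO (log2 difference 0.82, adjusted p = 0.0188), and Hccs, which attaches heme to cytochromes c and c1, with 16.0, 15.1 and 15.7 in WT and 20.7, 18.9 and 19.8 in Bach2-cKO (0.32, adjusted p = 0.023). Both had all Bach2-cKO libraries above WT. The 5 subunits and carriers that the name rule misses had 0 calls (limma, 2 at an unadjusted p under 0.05, and 0 by limma-voom). Among them cytochrome c, Cycs, gave 35.9, 35.3 and 42.6 FPKM in WT and 56.3, 51.5 and 40.7 in Bach2-cKO (0.37, adjusted p = 0.0963).

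Of the 32 genes for the upkeep and expression of mitochondrial DNA, 0 passed as higher and 2 as lower (6.25%, beside 15.3% of all tested genes). Grsf1, which binds mitochondrial RNA in the granules where it is processed, gave 72.7, 68.2 and 70.5 FPKM in WT and 50.9, 47.6 and 51.5 in Bach2-cKO. The groups were far apart, at a ratio of 0.71 (log2 difference -0.49, adjusted p = 0.0024). Polg2, the accessory subunit of the mitochondrial DNA polymerase, gave 12.9, 12.7 and 11.6 in WT and 10.3, 7.80 and 7.46 in Bach2-cKO (-0.51, adjusted p = 0.035). Of 77 mitochondrial ribosomal proteins 1 passed (1.30%), Mrpl30, as lower (-0.25, adjusted p = 0.0234), with a list median of 0.002. Of 19 genes of the tricarboxylic acid cycle, 2 passed as higher (10.5%). Cs, citrate synthase, gave 65.8, 65.4 and 64.4 FPKM in WT and 76.8, 79.0 and 72.1 in Bach2-cKO (0.22, adjusted p = 0.0429). The other was Ogdh, of the oxoglutarate dehydrogenase complex (0.26, adjusted p = 0.0342).

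The 13 genes of ubiquinone synthesis had 0 calls (limma, 1 at an unadjusted p under 0.05, and 0 by limma-voom), with Pdss2, which makes the side chain, nearest at 0.37 (adjusted p = 0.0675). The 17 tested regulators of mitochondrial biogenesis had 0 calls as well (limma, 1 at an unadjusted p under 0.05). By limma-voom 1 of them, Myc, passed as lower, and it was also nearest in limma on FPKM. Myc, a transcription factor that drives growth, gave 44.6, 41.0 and 45.5 FPKM in WT and 38.1, 33.7 and 24.3 in Bach2-cKO (-0.46, adjusted p = 0.0823). The groups did not overlap, and Bach2-cKO replicate 3 was the lowest.

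Promoters of the nuclear members were searched for motifs of known regulators. RefSeq start sites on GRCm38.p6 were matched for 74 of the 89, and the window from 250 bases before to 50 after the start was searched on both strands. The motif of NRF1, a regulator known to act on respiratory genes, occurred in 19 of 74 (25.7%), against 7.17% of 17491 coding genes and 12.3% of the 8742 coding genes matched among those tested. That of YY1 occurred in 6 (8.11%), against 1.41% and 2.61%. The ETS motif bound by GABPA, also called NRF2 (CCGGAAGT), occurred in 5 (6.76%), against 5.69% and 9.80%. The MAF recognition element bound by BACH2 with small MAF proteins occurred in 0 of 74, against 0.372% and 0.377%, and the core it contains (TGANTCA) in 7 (9.46%), against 8.12% and 5.94%. These are matches of letters in short windows, counted with no test.

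Of the 5 genes that passed, Cox6a2 had no matched window and Cox7a2l and Cox6b2 held none of these motifs. Ndufa6 held the NRF1 motif, and Uqcrh held the ETS motif and, at base -203, the TGANTCA core. Stretches of 30 bases around the motif, in capitals, are shown for both and for 3 members that did not pass, since the NRF1 letters stand at genes with and without a call (RefSeq, GRCm38.p6, 5′ to 3′ on the strand of the gene).
Uqcrh, ETS motif on the other strand, chr4:116075063-116075092: gagtatgccgcACTTCCGGccaggtcgccg
Ndufa6, NRF1 motif on the other strand, chr15:82354249-82354278: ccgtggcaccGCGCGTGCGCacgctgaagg
Ndufb4, NRF1 motif, chr16:37654371-37654400: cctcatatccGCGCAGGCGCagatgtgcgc
Sdha, NRF1 motif, chr13:74350231-74350260: gcgactcggtGCGCAAGCGCagtctgtcgc
Uqcrc1, NRF1 motif, chr9:108936668-108936697: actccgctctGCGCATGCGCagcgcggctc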

How the data were processed

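Per the labels, libraries were made from poly(A) RNA with an Illumina TruSeq kit. HISAT2 (2.0.5), featureCounts (1.5.0-p3) and build mm9 are named in the submitters' processing notes, with no order. The sources used here do not name the annotation, the strand setting or the treatment of reads with several matches. The authors deposited FPKM per gene and library. Gene positions equal GENCODE M21 (GRCm38) for 45128 of 49326 identifiers, so positions are given on GRCm38.

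FPKM steps gave whole reads (tolerance 0.001) for all 102 members, 80 of them at the mean length of the gene's transcripts and 22 at another length. Levels set between nuclear genes use FPKM rescaled to the longest coding transcript. The test used log2 of FPKM plus a pseudocount of 1 and took genes that reached 1 FPKM in 3 or more libraries, 13766 in all. It was limma 3.58.1 (eBayes with trend, two-sided) in R 4.3.3, with no covariate, Benjamini-Hochberg adjustment over all genes and a threshold of 0.05. Fold changes of low genes are understated on this scale. Depth ran from 27697735 to 43884431 reads counted in genes, and 3 reads in 1 kb correspond to 0.0684 to 0.108 FPKM.

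Members and lists were chosen with earlier results of these data known. Genes were named by rule: members past the threshold, the highest and lowest log2 difference of each complex with a mean of at least 5 FPKM, all mitochondrially encoded members, 10 central subunits, isoform groups, and per list the 2 smallest p-values (of these, Atpif1, Coq8b, Mrpl14 and Pparg did not pass: log2 differences of -0.23, -0.19, -0.21 and 0.53). Ndufb4, Sdhaf1, mt-Rnr2, markers and neighbouring genes were added after their values were seen, and Atp5h, Atp5l and Atp5o for their shared sequence. The alternatives were other filters, pseudocount, scalings, limma-voom, a replicate block, a B cell score, a stricter threshold and each library left out. In a check on simulated reads the test missed most of the smallest planted changes, so small differences can go without a call. Copies were exact 50-base matches, on both strands, among GENCODE M21 transcripts (Python 3.11.15, figures with Matplotlib 3.10.9). Genes that overlap in place count among them.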

Additional observations from a re-analysis of the deposited data

How the results depend on the processing

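Of 686 fits of the 43 named members under 16 alternatives, 662 kept their side of the threshold, 21 lost a call, 3 gained one and 0 reversed. Cox6a2, Cox6b2 and Cox7a2l were called under every alternative except the B cell score as covariate. The main counts were 1 nuclear member higher and 4 lower, and 967 genes higher and 1144 lower of all tested. With the score they were 0 and 0, and 30 and 35. At an adjusted p under 0.01 they were 1 and 2, and 341 and 454. With no filter on low values they were 1 and 2, and 501 and 681, where 28530 genes were tested. Leaving out each library in turn gave 1 to 3 nuclear members higher, 2 to 4 lower, and 492 to 1224 genes higher and 560 to 1375 lower of all tested. With a replicate block the counts were 1 and 2, and 625 and 657. Deviations of same-numbered libraries had correlations of -0.05, 0.006 and -0.21, and those of differently numbered libraries ran from -0.13 to 0.18. With 3 libraries a group, these values cannot show whether the numbers pair the samples. Mitochondrial counts were 0 in both directions under all 16. Median-ratio scaling moved the median of all genes from -0.02 to 0.002, and 11 of 97 members changed sign under it, none of them called. Without Bach2-cKO replicate 3, Uqcrq and Cox5a passed as higher. Among tested members, depth was lowest for Cox7a1, with 6 to 40 reads a library, mt-Atp8, with 10 to 22, and mt-Nd4l, with 42 to 66.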
